A study of Mus musculus with 12 samples.

Results

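The mRNA response of EL-4 cells to PMA, a phorbol ester, given together with the calcium ionophore ionomycin (P/I for short) was examined while cycloheximide (CHX) was present, that is, the part of the T cell activation response that was seen with protein synthesis blocked. EL-4 is a mouse T lymphoma line. All cells first received DMSO, either alone or carrying 10 μg/ml CHX, for 30 min. Stimulation with 10 ng/ml PMA plus 1 μM ionomycin then lasted 4 h, or 0 h for cells called unstimulated. The comparison is between the 3 arrays of CHX-treated, P/I-stimulated cells and the 3 arrays of CHX-treated, unstimulated cells, 6 of the 12 arrays of the series. The other 6 arrays are the same pair of groups in DMSO and show the P/I effect with protein synthesis intact. Expression was measured on Affymetrix Mouse Gene 1.0ST arrays as log2 robust multichip average (RMA) values. Of 35399 probe sets, the 21789 that pair with 1 gene symbol were described, and they stand for 19938 genes. Where a gene had several of them, the probe set with the highest mean over all arrays was used. Unstimulated cells may have been in CHX for the pretreatment only, and stimulated cells 4 h longer, so an effect of P/I and an effect of a longer time in CHX cannot be told apart in this comparison. Neither the block of protein synthesis nor protein levels were measured.

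PMA activates protein kinase C and the Ras pathway in place of diacylglycerol, and ionomycin lets calcium into the cell, so that the pair acts downstream of the T cell receptor. The signals reach transcription factors that are already in the cell, among them NF-κB, NFAT, the CREB family and serum response factor. Genes that these factors switch on without a new protein are called primary response genes, and many of them encode transcription factors and feedback inhibitors. CHX stops the ribosome during elongation. It is also known to raise the mRNA of many immediate early genes, a phenomenon called superinduction, as unstable repressors and mRNA decay factors are no longer made.

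The T cell markers Cd3d, Cd3e, Cd3g, Cd247, Thy1, Ptprc, Cd2 and Cd28 were on the array together with Cd4 and Cd8a, and the mean log2 values of these 10 in CHX-treated, unstimulated cells ran from 5.02 to 12.6, with Cd4 and Cd8a the lowest. The mean values of 8 myeloid markers ran from 4.28 to 5.34 in the same cells, and their sum was 38.47 to 38.94 per array against 40.41 to 41.80 with P/I. Of these 8, the Fc receptor gene Fcgr1 was higher with P/I, at 7.49, 5.95 and 6.22 against 5.10, 5.19 and 5.22. The 6 B cell markers summed to 30.89 to 31.31 per array without P/I and 30.70 to 30.99 with it, with 1, Cd79b, called lower, and 5 erythroid and fibroblast markers to 27.19 to 27.97 and 27.84 to 28.42, with 0 called and 0 at an unadjusted p under 0.05 by limma. The T cell markers summed to 91.02 to 92.16 and 89.51 to 92.11, with Cd3g and Cd28 called lower. What part other cells had in the results was not tested. Arrays of 1 group correlated at 0.983 to 0.994 across all 35399 probe sets.

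With P/I in CHX, 2214 of 21789 probe sets (10.2%) were higher and 2566 (11.8%) were lower at an adjusted p under 0.1 from limma. By more than 2-fold, 528 (2.42%) were higher and 390 (1.79%) were lower. The large changes were mostly increases: 44 probe sets were more than 8-fold higher and 2 were more than 8-fold lower. Of the calls, 1369 higher and 1637 lower were also made in each of the 12 fits that left out 1 array. When each array was centred on its median, the counts became 1673 and 2818, and the median effect over all probe sets moved from log2 0.0221 to -0.0333.

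Nr4a3, which encodes an orphan nuclear receptor, had the largest increase. Its log2 values in CHX were 5.48, 5.69 and 5.67 in unstimulated cells and 11.84, 11.63 and 11.75 with P/I, a 70.0-fold difference (log2 6.13, SE 0.18, limma adjusted p = 5.04e-09). Tagap, which encodes a T cell GTPase-activating protein, went from 5.71, 5.83 and 6.32 to 11.99, 11.37 and 11.60 (52.0-fold). Egr4, a zinc finger transcription factor of the early growth response family, went from 6.74, 7.19 and 7.57 to 12.60, 12.71 and 12.77 (46.2-fold). For these 3 genes the stimulated arrays lay within a log2 range of less than 1 and far above every unstimulated array. H2bc4, which encodes a histone H2B, followed with 4.34, 4.54 and 4.52 against 10.20, 9.43 and 10.06 (43.2-fold). Egr2 and Egr3, further members of the Egr family, were 36.6-fold and 35.6-fold higher. The 12 genes next in order were Rel (22.2-fold) and Relb (19.7-fold), which encode NF-κB subunits, Nfkbid (22.1-fold), Nfkbia (14.9-fold) and Nfkbie (14.8-fold), which encode inhibitors of NF-κB, the cytokine genes Tnf (20.7-fold) and Lif (14.6-fold), the chemokine gene Ccl3 (19.4-fold), the interferon gene Ifnz (16.0-fold), the immediate early gene Ier2 (15.7-fold), Olfr1372-ps1 (15.5-fold), an olfactory receptor pseudogene, and Map3k8 (14.1-fold), a kinase upstream of ERK. Fosb (13.6-fold) and Junb (13.4-fold), which encode subunits of the AP-1 factor, completed the 20 largest increases. The limma adjusted p of the 20 lay between 4.9e-09 and 0.00323.

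**Figure D1:**
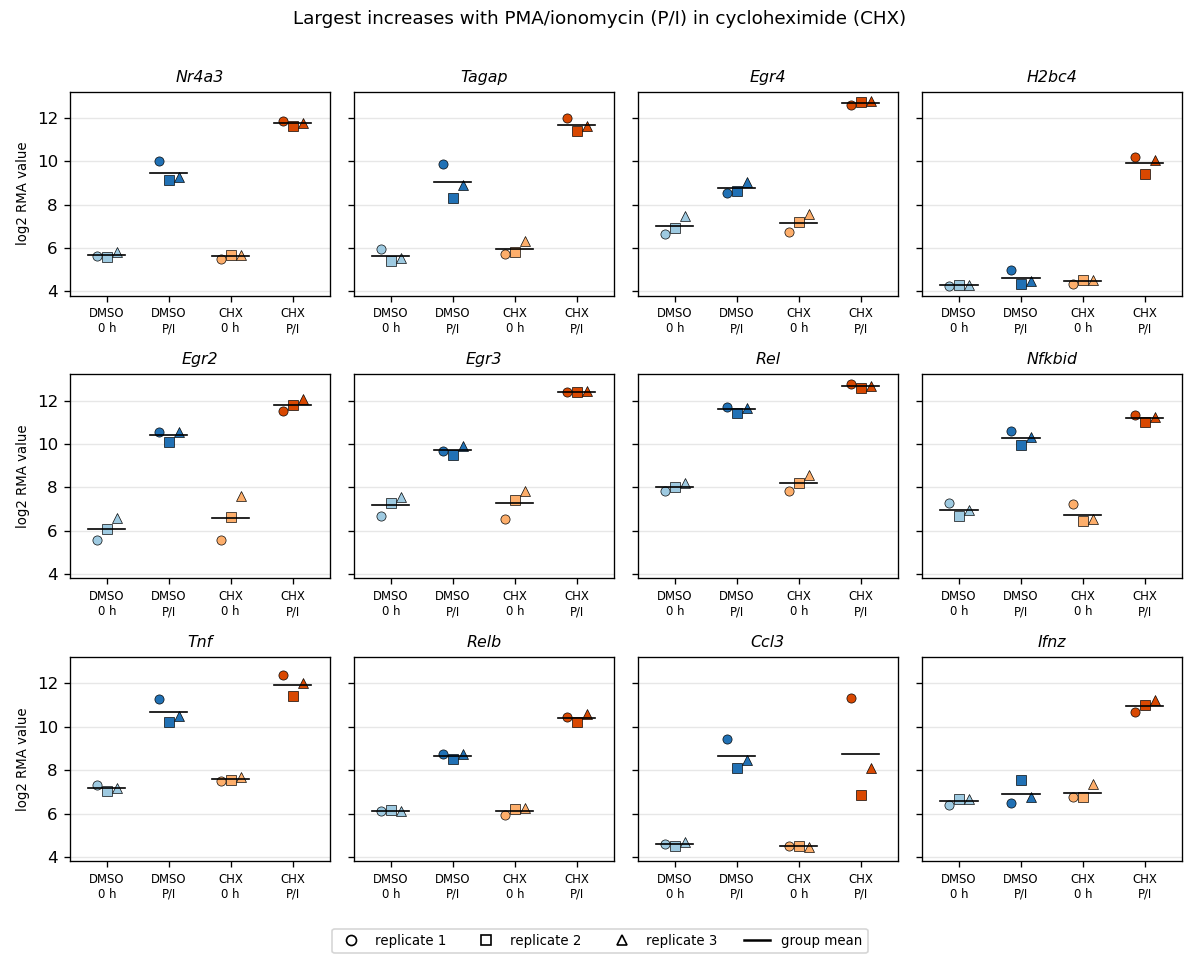
The 12 largest increases with P/I in CHX, as log2 RMA values (vertical axis) of each array in the 4 groups (horizontal axis, 0 h for unstimulated), with circles, squares and triangles for replicates 1, 2 and 3 and a line at the group mean. Only calls whose CHX groups did not overlap were ranked, so the separation of these groups follows from the choice of genes. With P/I in CHX, Nr4a3 is higher by log2 6.13 in the mean, and the Ccl3 values of 11.33, 6.84 and 8.11 spread most.

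The sequences before the start sites of the 6 largest increases that the RefSeq promoter table holds are shown because the members of this group rose together. H2bc4 and Egr3, also among the 6 largest increases in the ranking, are named only. Each run is the 250 bases before the annotated start in GRCm38.p6, read on the gene's own strand. The windows are chr4:48045055-48045304 (plus strand) for Nr4a3, chr17:7925750-7925999 (plus strand) for Tagap, chr6:85513590-85513839 (minus strand) for Egr4, chr10:67535249-67535498 (plus strand) for Egr2, chr11:23770970-23771219 (minus strand) for Rel and chr7:30421481-30421730 (plus strand) for Nfkbid. Where a gene had several starts in the table, the most upstream was taken. Capitals mark 4 kinds of match found here on either strand: TGACGT, the core of the cyclic AMP response element bound by CREB and ATF factors, TGGAAA, a core bound by NFAT, GCGNGGGCG, bound by Egr factors, and the NF-κB consensus of 10 letters.
Nr4a3: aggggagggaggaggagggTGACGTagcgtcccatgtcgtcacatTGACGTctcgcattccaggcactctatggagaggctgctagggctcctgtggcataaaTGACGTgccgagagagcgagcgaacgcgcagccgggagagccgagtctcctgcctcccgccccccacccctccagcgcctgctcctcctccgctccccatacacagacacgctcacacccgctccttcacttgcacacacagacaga
Tagap: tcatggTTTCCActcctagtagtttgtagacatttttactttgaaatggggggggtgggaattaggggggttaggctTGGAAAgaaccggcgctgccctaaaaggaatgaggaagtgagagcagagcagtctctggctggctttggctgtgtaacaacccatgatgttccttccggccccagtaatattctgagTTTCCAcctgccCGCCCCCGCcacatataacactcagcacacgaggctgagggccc
Egr4: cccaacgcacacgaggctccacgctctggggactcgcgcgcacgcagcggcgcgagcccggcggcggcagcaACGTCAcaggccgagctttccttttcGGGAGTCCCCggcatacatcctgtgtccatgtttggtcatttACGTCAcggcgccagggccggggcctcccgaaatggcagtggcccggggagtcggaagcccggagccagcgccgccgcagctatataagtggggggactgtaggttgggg
Egr2: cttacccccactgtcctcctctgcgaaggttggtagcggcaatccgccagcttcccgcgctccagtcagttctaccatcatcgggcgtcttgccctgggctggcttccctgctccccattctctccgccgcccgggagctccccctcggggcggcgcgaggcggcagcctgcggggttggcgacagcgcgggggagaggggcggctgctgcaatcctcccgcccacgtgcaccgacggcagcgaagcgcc
Rel: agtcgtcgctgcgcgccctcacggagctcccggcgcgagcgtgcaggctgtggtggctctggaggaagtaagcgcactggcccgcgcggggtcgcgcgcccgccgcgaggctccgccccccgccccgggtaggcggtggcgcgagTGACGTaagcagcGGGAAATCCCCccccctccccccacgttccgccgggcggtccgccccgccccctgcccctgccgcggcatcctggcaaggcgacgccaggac
Nfkbid: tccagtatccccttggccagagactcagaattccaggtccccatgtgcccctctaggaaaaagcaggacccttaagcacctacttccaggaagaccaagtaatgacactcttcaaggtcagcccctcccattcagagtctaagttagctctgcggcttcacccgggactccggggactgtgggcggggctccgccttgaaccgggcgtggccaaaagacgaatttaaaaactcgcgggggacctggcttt

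The Nr4a3 window held TGACGT 3 times, the Egr4 window 2 times, and the Rel window once. The NF-κB consensus was found in the window of Egr4 and in that of Rel. In Rel, 2 overlapping matches lay from 92 to 82 bases before the start. Tagap had 3 TGGAAA matches and 1 GCGNGGGCG match, and Egr2 and Nfkbid had none of these letters in the window. Egr2 has 5 annotated starts and Nfkbid 3, of which the most upstream alone is described here. Neither TGANTCA, the AP-1 site, nor the CArG box of serum response factor was found in the 6 windows. TGACGT was chosen after these sequences were seen. Over the 534 windows of genes that were more than 2-fold higher with P/I in CHX, 14.8% held TGACGT, against 7.77% of the 19177 windows of measured genes. The NF-κB consensus was in 9.93% of them against 4.33%, GCGNGGGCG in 10.3% against 6.9%, TGGAAA in 19.5% against 16.8%, the CArG box in 2.43% against 1.26% and TGANTCA in 5.81% against 6.04%. Among the 377 windows of genes that were more than 2-fold lower, the shares were 6.1% for TGACGT, 2.92% for the NF-κB consensus and 15.6% for GCGNGGGCG. These shares are descriptions of the letters and carry no test.

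Among the gene lists, whose members were chosen with earlier results of these data known, immediate early transcription factors had the largest share of increases. Of 25 members, 23 rose in CHX (92% against 10.2% of all probe sets), with a median of log2 2.78, and 1 was lower. All 23 increases were kept in each fit that left out 1 array. In the Egr family the rise was log2 5.53 for Egr4, 5.20 for Egr2, 5.15 for Egr3 and 2.93 for Egr1. The AP-1 subunits rose as well, by log2 3.77 (Fosb), 3.75 (Junb), 3.65 (Fos), 3.31 (Fosl2), 2.49 (Jun), 1.43 (Fosl1) and 1.34 (Jund). Fos went from 6.29, 7.62 and 7.41 to 10.75, 10.71 and 10.81, so that the stimulated arrays were close together while the unstimulated ones were not. All 3 Nr4a receptors rose, Nr4a1 by log2 3.24 and Nr4a2 by log2 1.85. Ier2, Maff and Klf10 rose by log2 3.97, 2.91 and 2.69, and the growth regulator Myc, which was high before, by log2 1.32. The smallest increase was that of Atf3, at log2 0.62 (SE 0.17, limma adjusted p = 0.0245). Klf4 was at 5.93, 5.64 and 5.59 without and 6.03, 5.67 and 5.84 with P/I, and its difference was not called. Srf, the serum response factor gene, had a difference of log2 -0.59 that was called (limma adjusted p = 0.0562) but was lost without CHX-treated unstimulated replicate 1 (-0.57, adjusted p = 0.133) or 3 (-0.57, adjusted p = 0.144).

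In unstimulated CHX arrays, replicate 1 was the lowest for many of these genes. Egr1 was 6.43 there and 8.91 and 9.51 in the others, Jun was 6.33 against 8.17 and 8.25, and Klf6 was 7.77 against 9.46 and 9.80. Without that array the P/I effect was log2 2.01 rather than 2.93 for Egr1, 1.86 rather than 2.49 for Jun and 1.09 rather than 1.71 for Klf6, and each was still called. Over all probe sets, 52 were lower in that array than in both other arrays of the group by more than log2 1, and 28 were higher. The cause was not tested.

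Of 18 NF-κB subunits and feedback inhibitors, 14 rose with P/I in CHX (77.8%, against 10.2% of all probe sets) and 1 was lower, with a median of log2 2.26. Each increase was kept in each fit that left out 1 array. Rel went from 7.81, 8.20 and 8.59 to 12.78, 12.56 and 12.68, and Relb from 5.92, 6.19 and 6.27 to 10.45, 10.24 and 10.60. Nfkb2 rose by log2 2.89 and Rela by log2 1.76. Among the IκB proteins, which hold NF-κB in the cytoplasm or act on it in the nucleus, Nfkbid, Nfkbia and Nfkbie rose by log2 4.47, 3.90 and 3.89, Nfkbib by 1.90, Nfkbiz by 1.88 and Bcl3 by 1.31. Tnfaip3, the deubiquitinase A20, was at 7.02, 7.39 and 7.37 without and 10.59, 10.61 and 10.60 with P/I. Birc3 (log2 3.23), a ubiquitin ligase, and the adaptor Traf1 (2.61) rose too, as did the A20 partner Tnip1 (1.54). Tnip2 and Tnip3, further partners of A20, were not called higher in CHX. Tnip2 was at log2 -0.35 in CHX (limma adjusted p = 0.122, and 0.0673 in a fit of the 6 CHX arrays alone) and rose by log2 0.71 in DMSO (difference -1.07, adjusted p = 0.00569). Tnip3 was at 4.67, 4.65 and 4.80 in unstimulated and at 4.69, 4.78 and 4.54 in stimulated CHX-treated cells, whereas in DMSO it went from 4.68, 5.04 and 4.59 to 10.99, 10.50 and 11.10. The call of the deubiquitinase Cyld (log2 -0.49, limma adjusted p = 0.0433) was lost without stimulated replicate 2 (-0.44, adjusted p = 0.14), stimulated replicate 3 (-0.47, adjusted p = 0.127) or unstimulated replicate 3 (-0.45, adjusted p = 0.135).

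**Figure D2:**
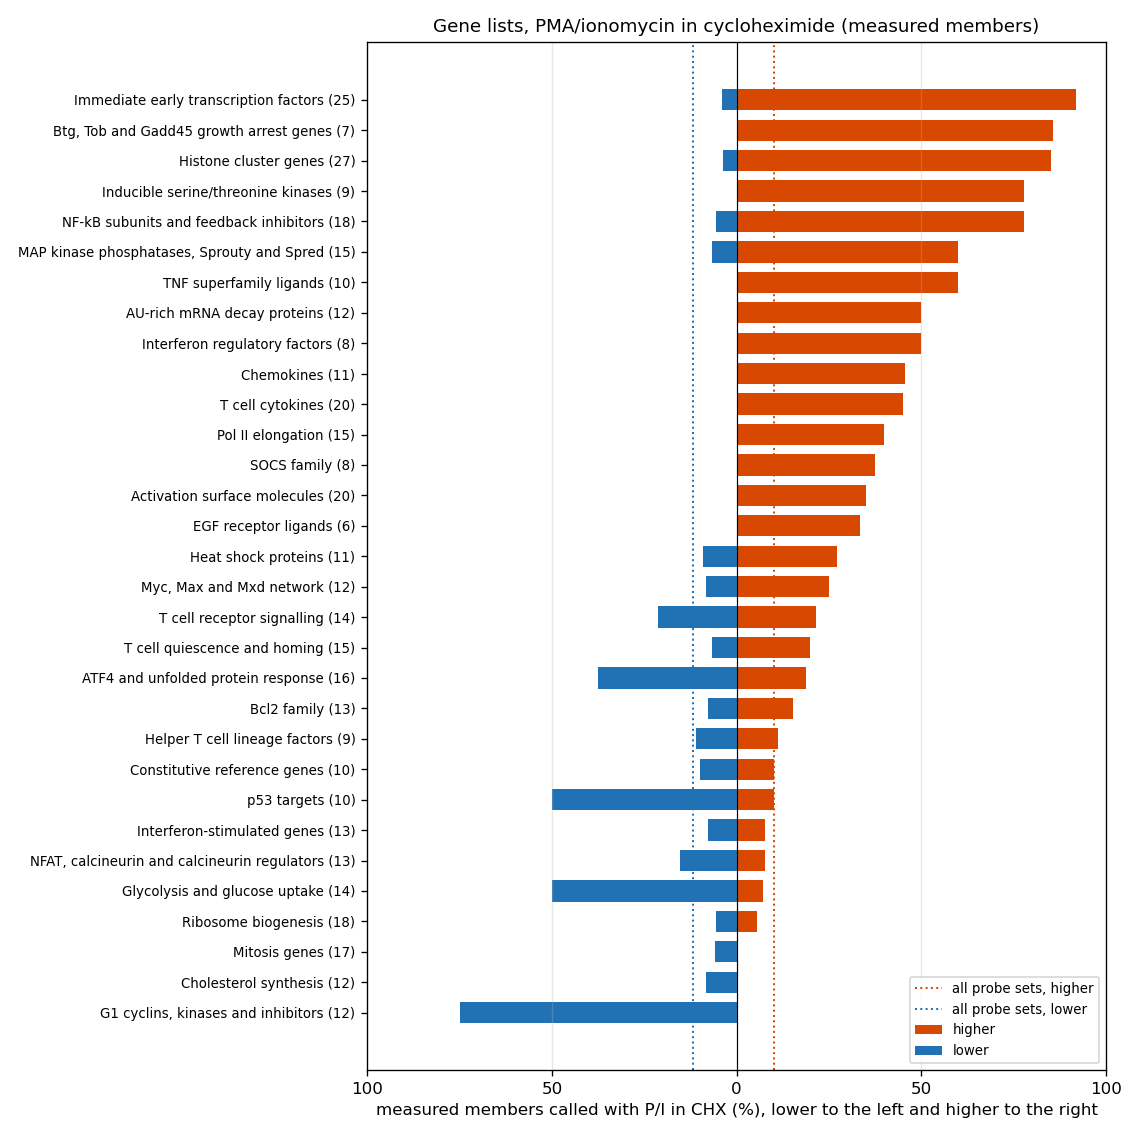
For each gene list described here, the share of measured members (number in parentheses) called higher (right, orange) or lower (left, blue) with P/I in CHX at an adjusted p under 0.1 from limma, with dotted lines at the shares of all probe sets, 10.2% and 11.8%. Immediate early transcription factors reach 92% higher, and G1 cyclins, kinases and inhibitors 75% lower. The lists were chosen with earlier results of these data known.

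Lists of genes that limit the signals of activated T cells, and a list of inducible kinases, held increases as well, against 10.2% higher of all probe sets. Of 15 MAP kinase phosphatases, Sprouty and Spred genes, 9 rose and 1 fell. Dusp1 went from 8.48, 9.74 and 9.63 to 12.93, 12.80 and 12.73 (log2 3.54), Spry1 rose by log2 3.09, Dusp8 by 3.06, Dusp6 by 2.04 and Dusp2 by 1.97, and Dusp7 fell by 1.59 on the log2 scale. Of the 9, Spry4 (log2 1.62) and Dusp4 (2.0) were not called without unstimulated replicate 1 (1.31, limma adjusted p = 0.107, and 1.34, adjusted p = 0.213), and Dusp6 was then at log2 1.45. Without stimulated replicate 3, Spry4 (1.16, adjusted p = 0.119) and Dusp4 (1.96, adjusted p = 0.15) were not called either, and Dusp4 was also lost without stimulated replicate 2 (1.79, adjusted p = 0.175) or unstimulated replicate 2 (2.12, adjusted p = 0.107). Of 12 genes for proteins that act on mRNA stability, 6 rose. They included Zfp36, which encodes tristetraprolin (log2 3.36), the RNase Zc3h12a (2.93), Zfp36l1 (2.83) and Rc3h2 (0.78). Of 7 Btg, Tob and Gadd45 genes, which slow growth, 6 rose, led by Gadd45b (3.73) and Btg2 (3.39), and Gadd45a did not pass the test (0.16, against 1.52 in DMSO). Of 9 inducible serine/threonine kinases, 7 rose, led by Map3k8 (3.82) and Plk3 (3.68). In the SOCS family, whose members limit cytokine receptors, 3 of 8 rose, among them Socs3 (1.68) and Socs2 (0.95). Both of the Socs3 probe sets were called higher, as were both of Socs2.

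Among the secreted factors, Tnf, Ccl3 and Lif had the largest increases. Of 20 T cell cytokines, 9 rose with P/I in CHX (45%, against 10.2% of all probe sets), with a median of log2 0.714. Of the 9, 7 were kept in each fit without 1 array. Tnf rose from 7.48, 7.55 and 7.70 to 12.40, 11.41 and 12.04, and Lif from 4.55, 4.91 and 4.80 to 9.57, 7.92 and 8.38. Il6 (log2 1.83), Csf1 (1.18), Ifng (1.12) and Il17f (0.87) rose less. Lta (0.81, limma adjusted p = 0.0956) and Tgfb1 (0.43, adjusted p = 0.0405) were the calls not kept. The Lta call was lost without any array other than stimulated CHX replicate 2 or stimulated DMSO replicate 1 (adjusted p from 0.103 to 0.2), and its difference was log2 0.35 without stimulated CHX replicate 1. The Tgfb1 call was lost without unstimulated replicate 1 (0.36, adjusted p = 0.143) or stimulated replicate 2 (0.43, adjusted p = 0.1) or 3 (0.29, adjusted p = 0.167). Il4, Il5 and Il10, cytokines of type 2 and regulatory T cells, were at log2 differences of 0.76, 0.01 and 0.11 and were not called, while in DMSO they rose by 4.76, 2.24 and 1.58. Of 11 chemokines, 5 rose. Ccl3 rose by log2 4.27, Cxcl10 by 3.24, Ccl1 by 1.99 and Ccl4 by 1.85, and Ccl5 had a call at log2 0.39 (adjusted p = 0.0519) that was lost without any 1 of the 6 CHX arrays (0.38 to 0.40, adjusted p from 0.105 to 0.136). Of 10 TNF superfamily ligands, 6 rose, among them Tnfsf9 (3.03), Tnfsf14 (2.81) and Tnfsf11 (1.13), and 3 of the 6 were kept in each fit without 1 array. Of the cytokines, chemokines and TNF ligands, 0 were called lower by limma, and 0 were lower at an unadjusted p under 0.05 or when the replicate number was blocked, that is, entered as a term in the fit.

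Il2, the T cell growth factor, was among the genes with the largest spread in the stimulated CHX arrays. Its values were 8.63, 5.45 and 6.03 with P/I against 4.38, 4.71 and 4.85 without, a difference of log2 2.06 (SE 0.60, limma adjusted p = 0.0344), and the groups did not overlap. Without stimulated replicate 1 the difference was log2 1.10 (adjusted p = 0.0081) and without replicate 2 it was 2.69. In a fit of the 6 CHX arrays alone the call was lost (adjusted p = 0.106). Csf2, another growth factor, was at 8.16, 5.19 and 5.87 against 4.86, 5.12 and 5.57, which overlapped (adjusted p = 0.284). Ccl3 spread most, at 11.33, 6.84 and 8.11 against 4.49, 4.52 and 4.45, and its difference was log2 2.99 without replicate 1 and 5.23 without replicate 2. Ccl4 (8.89, 6.01 and 6.78), Nos2, the inducible nitric oxide synthase gene (8.12, 5.28 and 6.10), Kcnj2, a potassium channel gene (7.08, 4.74 and 5.15), and Cxcl2 (7.32, 5.06 and 5.27) had the same order of arrays, as did the chemokine receptor gene Ccr8 (8.20, 5.40 and 5.79), whose groups overlapped. Without replicate 1, the difference of Ccl4 was log2 1.02 rather than 1.85, that of Kcnj2 0.89 rather than 1.60, that of Tnfsf9 2.42 rather than 3.03 and that of Nos2 0.64 rather than 1.45. Without replicate 2, the difference of Ccl4 was log2 2.46 and that of Nos2 2.06. The call of Nos2 (adjusted p = 0.0741) was lost without replicate 3 (1.65, adjusted p = 0.1) and without each of the unstimulated arrays (1.41 to 1.51, adjusted p from 0.128 to 0.165). The difference of Cxcl2 (log2 1.36, adjusted p = 0.15) was called when the replicate number was blocked (adjusted p = 0.0646). In all, 54 probe sets were higher in stimulated replicate 1 than in both others by more than log2 1, and 26 were lower. The cause was not tested.

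**Figure D3:**
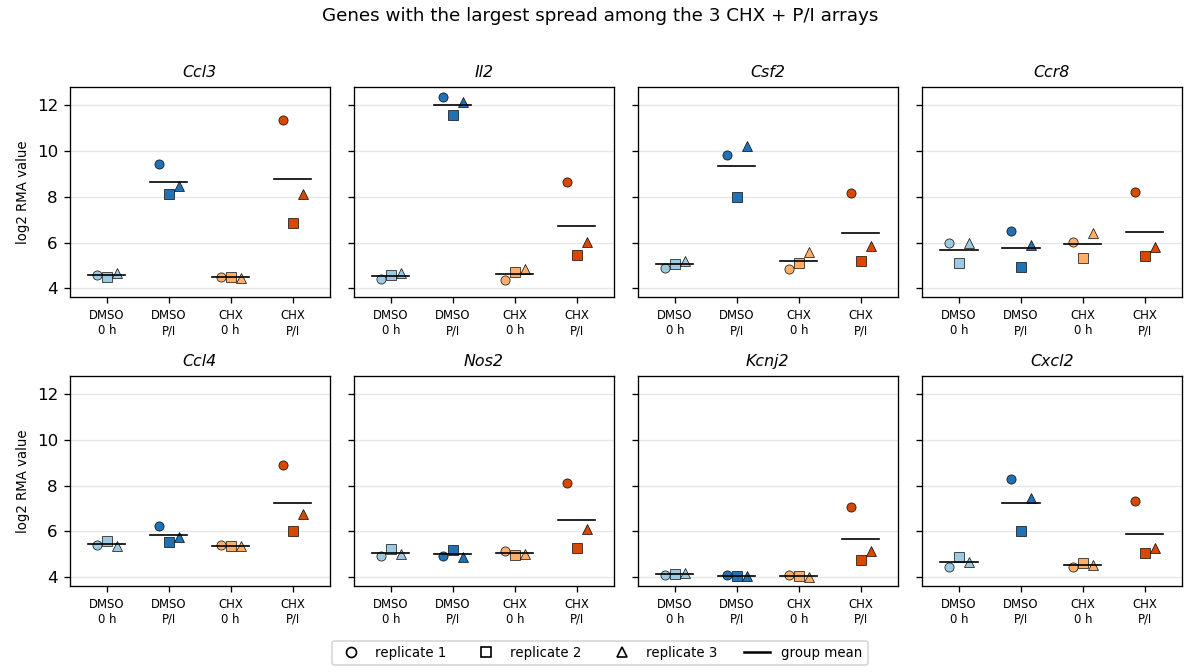
The 8 genes with the largest SD among the 3 stimulated CHX arrays, as log2 RMA values (vertical axis) of each array in the 4 groups (horizontal axis), with circles, squares and triangles for replicates 1, 2 and 3 and a line at the group mean. In the stimulated CHX group replicate 1 is the highest for each of the 8, at 11.33 for Ccl3 and 8.63 for Il2.

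Among 20 activation surface molecules, those of T cells that respond to antigen, 7 rose with P/I in CHX (35%, against 10.2% of all probe sets). Cd69, an early activation marker, went from 7.63, 9.21 and 9.51 to 12.43, 12.37 and 12.38, and Cd274, the ligand of the PD-1 receptor, from 7.10, 6.94 and 6.87 to 10.18, 9.96 and 10.01. Icam1 (log2 2.10), Icos (1.76), Pdcd1 (1.16), Tnfrsf9 (0.62) and Cd44 (0.55) also rose. The Cd44 call (limma adjusted p = 0.0358) was lost without unstimulated replicate 1 (0.41, adjusted p = 0.14) or stimulated replicate 1 (0.39, adjusted p = 0.123). Crtam (0.17), Sema7a (0.21), Slamf1 (0.21), Il2ra (0.31), Tnfrsf4 (0.33) and Tnfrsf18 (0.07) were not called in CHX and rose in DMSO by log2 3.55, 4.80, 3.04, 2.16, 2.92 and 1.11. In the fit of the 6 CHX arrays alone, Il2ra (adjusted p = 0.0707) and Tnfrsf4 (adjusted p = 0.0653) were called.

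In the signalling pathway itself, calls went in both directions, against 10.2% higher and 11.8% lower of all probe sets. The NF-κB adaptor gene Bcl10 rose by log2 2.38 (limma adjusted p = 4.22e-06), while the protein kinase C gene Prkcb (-0.43) and the diacylglycerol kinase gene Dgkz (-0.78, and -0.12 with no call on its other probe set) were lower. Of 13 NFAT, calcineurin and calcineurin regulator genes, Nfatc1 rose, from 7.14, 7.57 and 7.52 to 10.23, 9.45 and 10.11, and Nfatc3 and the calcineurin subunit Ppp3ca fell by 0.82 and 0.81 on the log2 scale. Of 14 genes of T cell receptor signalling, 3 were higher and 3 lower, among them Lcp2 (1.37) and Zap70 (1.08) and the costimulatory receptor Cd28 (-0.58). Interferon regulatory factors Irf9 (2.0), Irf1 (1.89), Irf3 (1.69) and Irf2 (1.04) rose, 4 of 8 measured, and a second Irf1 probe set with lower signal was not called (0.08). Irf4, a factor of activated lymphocytes, was at 6.71, 4.79 and 4.78 against 4.47, 4.66 and 4.56 and was not called (log2 0.86, limma adjusted p = 0.242), whereas it rose by log2 4.43 in DMSO. Bcl6, a repressor that directs follicular helper T cells, rose by log2 2.35 and was the 1 of 9 helper T cell lineage factors that rose, while Zbtb7b fell (-0.69). Of 13 interferon-stimulated genes, 1 was higher and 1 lower, a share near that of all probe sets.

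Histone genes of the replication-dependent clusters were added as a list after the value of H2bc4 was seen. Of 27 measured, 23 were higher with P/I in CHX (85.2%, against 10.2% of all probe sets) and 1 was lower, with a median of log2 1.13. In DMSO limma called 0 of the 27 in either direction, while 1 was higher and 1 lower at an unadjusted p under 0.05, and 1 higher and 1 lower when the replicate number was blocked. For 22 the effect in CHX was above that in DMSO, against 5.88% of all probe sets. Apart from H2bc4, the larger increases were those of H2ac1 (2.87), from 8.27, 8.43 and 8.57 to 11.44, 10.97 and 11.45, H1f2 (2.68), H2bc1 (1.99) and H2bc8 (1.87). H4c14, whose signal was high before, rose by log2 1.19. H1f5 was the 1 called lower (-0.33, adjusted p = 0.0593), a call lost without stimulated replicate 3 (-0.26, adjusted p = 0.219) or 2 (-0.34, adjusted p = 0.122) and without unstimulated replicate 1 (-0.33, adjusted p = 0.134), 2 (-0.35, adjusted p = 0.107) or 3 (-0.31, adjusted p = 0.156). Histone genes of a family are near-identical copies, so probe sets of different members may measure shared transcripts.

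Decreases were smaller than increases. Ranked in the same way, the largest was that of Adamts1, which encodes a secreted metalloprotease, from 8.47, 8.85 and 9.10 to 5.47, 5.81 and 5.45 (log2 -3.23, SE 0.16, limma adjusted p = 2.44e-07), a ratio of 0.106. Arl11, a small GTPase gene, went from 8.13, 8.39 and 8.37 to 5.80, 5.90 and 5.51, and Mc5r, a melanocortin receptor gene, from 8.50, 8.65 and 8.95 to 6.17, 6.53 and 5.95. The next were St8sia1 (-2.40) and B4galnt4 (-2.08), which encode glycosyltransferases, the nucleotide sugar transporter Slc35b4 (-2.34), Gnb1l (-2.17), the RNA polymerase III subunit Polr3g (-2.16), the transcriptional repressor Bhlhe41 (-2.15), cyclin E2 (Ccne2, -2.07), Fam78a (-2.05) and the deubiquitinase Usp46 (-2.05). A second Gnb1l probe set with lower signal was not called (-0.11). Of these 12, Mc5r, Bhlhe41 and Fam78a fell in DMSO by a like amount, with log2 differences of -2.49, -2.42 and -2.09, and the intervals of the difference between CHX and DMSO were -0.63 to 0.65 for Mc5r, -0.27 to 0.83 for Bhlhe41 and -0.34 to 0.41 for Fam78a (95%).

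**Figure D4:**
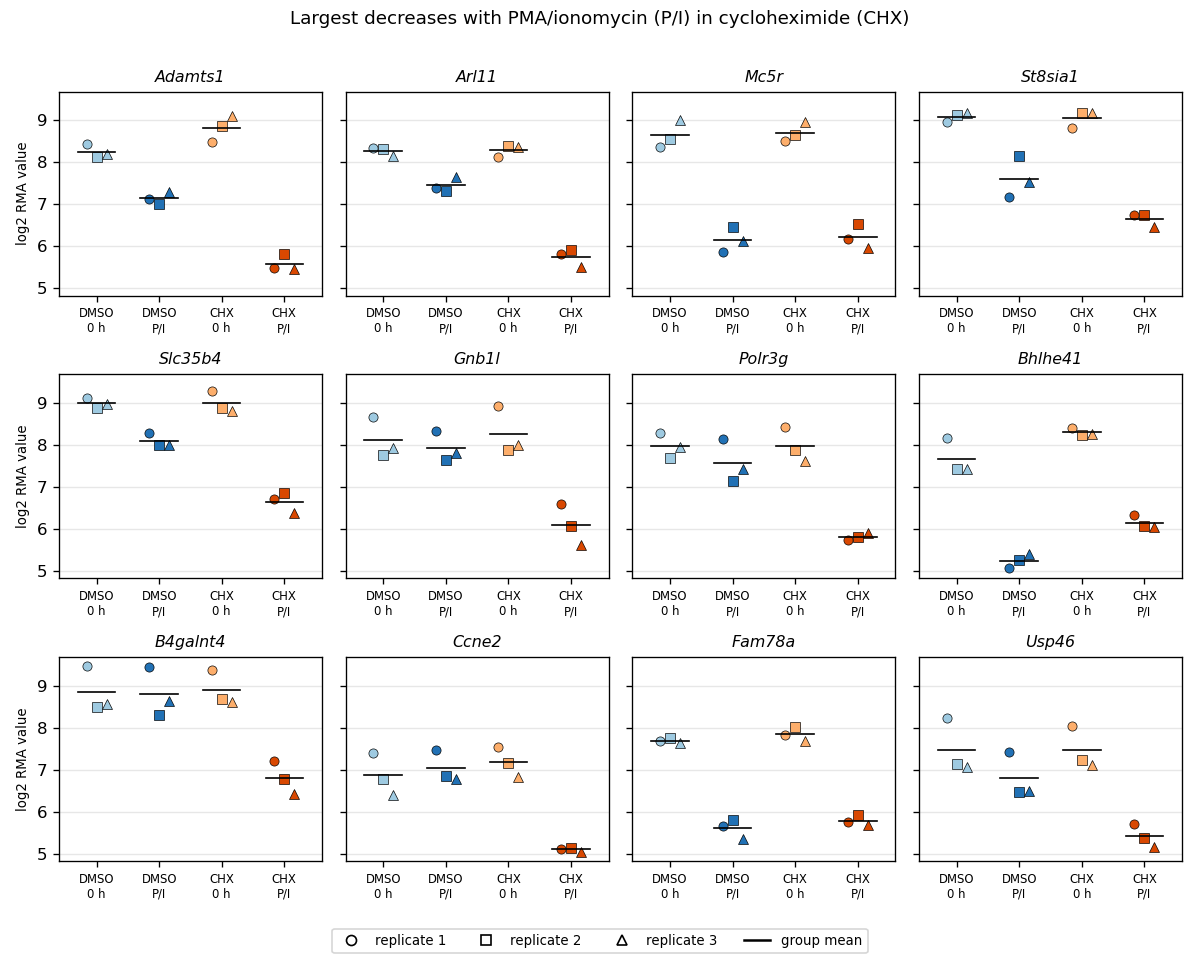
The 12 largest decreases with P/I in CHX, as log2 RMA values (vertical axis) of each array in the 4 groups (horizontal axis), with circles, squares and triangles for replicates 1, 2 and 3 and a line at the group mean. As for the increases, only calls whose CHX groups did not overlap were ranked, so their separation follows from the choice of genes. With P/I in CHX, Adamts1 is lower by log2 3.23 in the mean, and Mc5r and Fam78a are lower in both stimulated groups.

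Genes that control entry into the cell cycle, drivers and inhibitors alike, were mostly lower. Of 12 G1 cyclins, kinases and inhibitors, 9 were lower with P/I in CHX (75% against 11.8% of all probe sets), with a median of log2 -0.731, and 6 of the 9 were kept in each fit without 1 array. Ccnd1 went from 11.15, 10.99 and 11.16 to 9.29, 9.40 and 8.91, and Ccne2 from 7.53, 7.16 and 6.83 to 5.12, 5.14 and 5.04. Cdkn2c (-1.05), a kinase inhibitor, Ccne1 (-1.03), Cdk6 (-0.87) and the transcription factor gene E2f1 (-0.84) fell as well. In DMSO 5 of the 12 were lower and 1 was higher. Mitosis genes gave another picture: of 17, 13 were lower with P/I in DMSO (8.77% of all probe sets were) and 1, Ccna2 (log2 -0.62), was lower in CHX. The proliferation marker Mki67 had overlapping groups in CHX (log2 0.10, limma adjusted p = 0.754) and fell in DMSO by 1.05 on the log2 scale. For 8 of the 17, the effect in CHX was above that in DMSO at an adjusted p under 0.1 from limma, against 5.88% of all probe sets. In the fit of the 6 CHX arrays alone 4 mitosis genes were lower and 1 was higher.

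Glucose uptake and glycolysis genes were lower in 7 of 14 cases (50%, against 11.8% of all probe sets) and higher in 1, the regulator Pfkfb3 (log2 0.52). Hk2, the inducible hexokinase, went from 10.44, 10.64 and 10.87 to 8.70, 9.41 and 8.71 (-1.71), and the glucose transporter Slc2a1 from 12.25, 12.50 and 12.63 to 11.07, 11.64 and 11.49 (-1.06). The count of lower members fell from 7 to 4 without stimulated replicate 1, to 2 without replicate 2 of every group and to 1 without replicate 3 of every group, and was 10 when the replicate number was blocked. Of 10 targets of p53, 5 were lower (50%, against the same 11.8%), led by Sesn1 (-1.27) and Ei24 (-1.18), and 1 was higher. Of 12 genes of cholesterol synthesis, Sqle was lower (-1.86). Il7r, the interleukin 7 receptor of resting T cells, went from 9.81, 10.37 and 10.00 to 9.08, 8.67 and 7.52, and was the 1 lower of 15 quiescence and homing genes, while 3 were higher. When the replicate number was blocked, 6 of those 15 were higher and 2 lower. Without unstimulated replicate 1 the count of higher members was 1. In other lists the shares were near those of all probe sets: of 18 ribosome biogenesis genes 1 was higher and 1 lower (3 and 5 when the replicate number was blocked), and of 10 constitutive reference genes 1 was higher and 1 lower, with Actb at 13.87, 13.70 and 13.69 without and 13.79, 13.58 and 13.80 with P/I. Of 11 heat shock proteins 3 were higher (27.3%), led by Hspa4l (2.88) and Dnajb1 (1.29), and 1 was lower, Hspa8 (-0.58), against 4 and 4 when the replicate number was blocked. Of 12 genes of the Myc network 3 were higher (25%) and 1 was lower, Mxd3 (-1.05), against 3 and 3 under the block. Of 15 genes of RNA polymerase II elongation, 6 were higher, among them Aff1 (1.30), Ccnt1 (0.85) and Polr2a (0.44), and 4 of the 6 were kept in each fit without 1 array. In the Bcl2 family, which controls cell death, 2 of 13 were higher (15.4% against 10.2% of all probe sets), Bcl2l11 (1.34) and Mcl1 (0.87), and 1 was lower, Bcl2l2 (-0.43). When the replicate number was blocked, 3 of them were higher and 3 lower.

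The same P/I comparison in DMSO shares no array with that in CHX, although both were fitted with 1 common estimate of the spread. In DMSO 2042 probe sets (9.37%) were higher and 1910 (8.77%) lower. Both lists shared 719 probe sets that were higher, 32.5% of those higher in CHX and 35.2% of those higher in DMSO, and 912 that were lower, 35.5% and 47.7%. Of the 528 that were more than 2-fold higher in CHX, 270 (51.1%) were also higher in DMSO. A further 74 were higher in CHX and lower in DMSO, and 275 were lower in CHX and higher in DMSO. The effect in CHX was above that in DMSO for 1281 probe sets (5.88%) and below it for 1699 (7.8%) by the interaction term of limma at an adjusted p under 0.1. With each array centred on its median these counts were 763 and 1941, so that the share above was 28.2% rather than 43.0% of the calls, and after quantile normalization they were 1516 and 1633. Of the 1421 probe sets higher in CHX and not called in DMSO, 637 had an effect above that in DMSO, so that for the other 784 a difference was not shown. A longer time in CHX for stimulated cells would enter the differences from DMSO too, and cannot be told apart from a changed P/I effect.

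**Figure D5:**
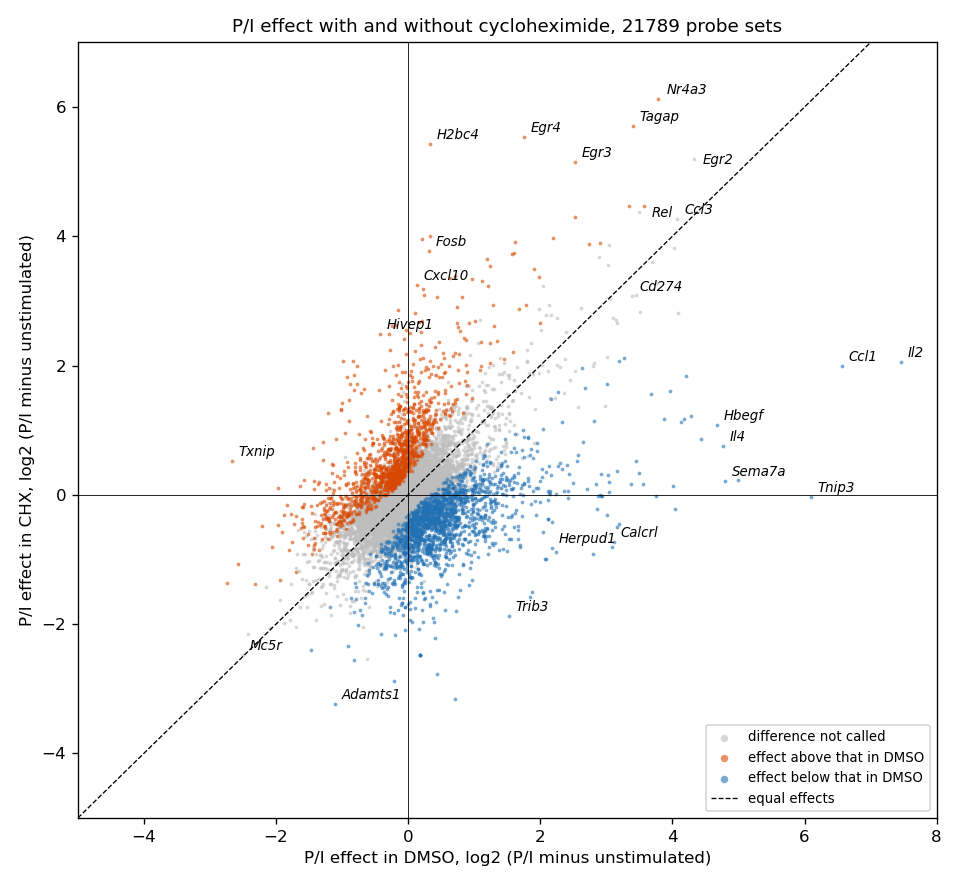
The P/I effect in CHX (vertical axis) against that in DMSO (horizontal axis), both as log2 differences between stimulated and unstimulated means, for 21789 probe sets, coloured by the interaction call of limma at an adjusted p under 0.1, with a dashed line where both are equal. Nr4a3 lies at 6.13 and 3.79, H2bc4 at 5.43 and 0.34, and Tnip3 at -0.04 and 6.10.

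Genes whose P/I effect was above that in DMSO included much of the immediate early list, 15 of 25, against 5.88% of all probe sets. Nr4a3 rose by log2 6.13 in CHX and 3.79 in DMSO (difference 2.34, SE 0.26, limma adjusted p = 0.000179), Egr4 by 5.53 and 1.76, and Fos by 3.65 and 1.19. Jun rose by log2 2.49 in CHX and was at -0.29 in DMSO, and Fosb was at 3.77 and 0.32. Others of this kind were the phosphatase Dusp8 (3.06 and 0.44), Btg2 (3.39 and 0.71), Zfp36 (3.36 and 0.64), Tob2 (2.01 and -0.16) and A20 (Tnfaip3, 3.34 and 0.97). Cxcl10, a chemokine gene that interferon and NF-κB induce in many cells, went from 4.96, 4.88 and 5.15 to 8.37, 8.19 and 8.15 in CHX and was at 5.01, 5.08 and 5.26 and at 5.29, 5.22 and 5.22 in DMSO. Not every early gene did so: Egr2 (5.20 and 4.32) and Cd69 (3.61 and 3.70) had no called difference, with 95% intervals of -0.40 to 2.14 and -1.22 to 1.04 on the log2 scale.

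For a further set, the rise with P/I was smaller in CHX than in DMSO by the interaction term. Il2 rose by log2 7.46 in DMSO and 2.06 in CHX, and Ccl1 by 6.56 and 1.99. Hbegf, an EGF receptor ligand, rose by 4.67 and 1.09, and Csf1 by 3.87 and 1.18. Hbegf was 1 of 2 EGF receptor ligands, of 6, that rose in CHX (33.3%, against 10.2% of all probe sets). The other was Egf (0.36), named after its value was seen. Of the 20 T cell cytokines, 8 had an effect below that in DMSO and 1 above, and of the 20 activation surface molecules 8 were below and 2 above. Of all probe sets, 7.8% were below and 5.88% above.

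The ATF4 and unfolded protein response genes, which are turned on when cells lack amino acids or the endoplasmic reticulum is overloaded, differed between CHX and DMSO. In DMSO 15 of 16 rose, against 9.37% of all probe sets. In CHX 6 fell (37.5%, against 11.8%) and 3 rose (18.8%, against 10.2%), 4 and 2 of which were kept in each fit without 1 array. For 12 of the 16 the effect was below that in DMSO, against 7.8% of all probe sets. Herpud1 was at 10.17, 10.29 and 10.16 and then 9.27, 9.42 and 9.45 in CHX, and went from 9.84, 10.06 and 10.33 to 12.27, 12.04 and 12.47 in DMSO. Trib3 fell by 1.88 in CHX and rose by 1.53 in DMSO, and Chac1 was at -1.0 and 2.07, all on the log2 scale. Edem1 was at -0.77 and 0.36. Those higher in CHX were Atf4 (log2 0.71), which encodes the factor itself, the chaperone Hspa5 (0.47) and Ddit3 (1.37). The Ddit3 call (limma adjusted p = 0.0574) was lost without unstimulated replicate 1 (0.90, adjusted p = 0.206) or stimulated replicate 2 (1.25, adjusted p = 0.166) or 3 (1.06, adjusted p = 0.216). Dnajb9 (-0.42) and Sesn2 (-0.38) were not called in CHX, but were when the replicate number was blocked (adjusted p = 0.0931 and 0.0124). Klf2, a factor of resting T cells, moved the other way, at log2 1.26 in CHX and -1.21 in DMSO. Its call in CHX (adjusted p = 0.051) was lost without unstimulated replicate 1 (0.72, adjusted p = 0.137) or stimulated replicate 2 (1.22, adjusted p = 0.134) or 3 (1.16, adjusted p = 0.158).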

How the data were processed

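Expression in EL-4 cells was measured on 12 Affymetrix Mouse Gene 1.0ST arrays, 3 in each of 4 groups, called biological replicates in the methods, grouped by the sample titles. The deposited log2 values were made by the authors with robust multichip average in Partek, with quantile normalization and a background correction that takes probe sequence into account (Partek version not given in the sources used here). These values were taken as deposited. Of 35399 probe sets, 23410 pair with at least 1 gene symbol in the platform annotation, 1621 of them with several. limma 3.58.1 (R 4.3.3) was fitted to the group means of all 12 arrays, with 8 residual degrees of freedom, and p-values were adjusted over the 23410 by the Benjamini-Hochberg method, with calls at an adjusted p under 0.1. Counts are over the 21789 probe sets with 1 symbol, and 11989 without a symbol were left out. The number of arrays limits the precision.

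Genes named are the 20 largest increases and 12 largest decreases among calls whose CHX groups did not overlap, the 10 largest differences from DMSO of each sign, the 8 largest SDs among stimulated CHX arrays, and members of the gene lists. The rankings passed over predicted genes and small RNA genes. The counts over 1 list, of genes that act directly after PMA, are not reported here. The members and lists were chosen with earlier results of these data known, and Egf, Cd79b and the histone genes were named after their values were seen. Same-numbered CHX arrays deviated from their group means together (r = 0.48, 0.30 and 0.31 for replicates 1, 2 and 3), so the numbers pair these arrays. The main fit left this pairing out. A fit with the number as a block was an alternative, and called more probe sets in CHX, 2954 higher and 3710 lower. Over all pairs of groups, the lowest correlation of same-numbered arrays was 0.064, between the stimulated DMSO and CHX arrays of replicate 3. The highest was 0.75, between the unstimulated DMSO and CHX arrays of replicate 1. Other alternatives left out arrays or replicates, rescaled the arrays, filtered low values, used other thresholds and variance models, weighted arrays or adjusted over all probe sets.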

Additional observations from a re-analysis of the deposited data

Results flagged for a closer look

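The P/I effect in CHX minus that in DMSO was tested by the interaction term of limma. A longer time in CHX for stimulated cells cannot be told apart from a changed P/I effect here. The 10 largest called differences of each sign, with predicted genes and small RNA genes passed over, are given here on the log2 scale with their adjusted p. The effect in CHX was above that in DMSO by 5.09 for H2bc4 (1e-06), 3.77 for Egr4 (3.7e-05), 3.75 for Olfr1372-ps1 (5.89e-05), 3.67 for Ifnz (7.27e-05) and 3.45 for Fosb (0.00436). It was above by 3.11 for Cxcl10 (2.13e-07), 3.02 for H2ac1 (3.71e-06), 2.96 for Cd209c, a C-type lectin gene (0.000199), and 2.91 for Hivep1, a zinc finger protein gene (1.78e-05). Txnip, a regulator of glucose uptake, differed by 3.20 (0.00628): it fell by 2.67 in DMSO and was at 0.53 in CHX, which was called with the replicate number as a block (adjusted p = 0.0345).

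The effect in CHX was below that in DMSO by -6.13 for Tnip3 (6.53e-08), -5.40 for Il2 (0.00212), -4.77 for the olfactory receptor gene Olfr644 (3.15e-07), -4.58 for Sema7a (6.53e-08) and -4.57 for Ccl1 (4e-05). It differed by -4.26 for Olfr1157 (1.07e-07), -4.00 for Il4 (0.00227), -3.91 for Pgap1, which acts on lipid anchors of surface proteins (1.68e-05), -3.88 for Abra, an actin-binding protein gene (4.74e-05), and -3.84 for Calcrl, a peptide receptor gene (3.02e-06). Pgap1 rose by 3.09 in DMSO and was at -0.81 in CHX, and its second probe set was at 1.33 and -0.18. Calcrl rose by 3.12 in DMSO and was at -0.72 in CHX.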

How the results depend on the processing

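Of 206 named genes, 177 were called with P/I in CHX, and 129 of these were called under each of 25 alternatives. No called effect changed sign. Leaving out arrays or replicates gave 982 to 2847 higher and 1026 to 3381 lower in CHX (over 2-fold, 463 to 574 and 315 to 447), 967 to 2712 higher and 629 to 2857 lower in DMSO, 221 to 2110 above and 444 to 2296 below DMSO, and 292 to 971 higher and 233 to 1500 lower in both. The lowest counts came without replicate 3, which left 2 arrays per group. Leaving out replicate 1 left as many arrays, and gave the 2847 higher and 3381 lower in CHX. With the replicate number as a block, counts were 2954 higher and 3710 lower in CHX, 2923 lower in DMSO, 2181 above and 2703 below DMSO and 1531 lower in both, and the named calls gained were those given beside Cxcl2, Dnajb9, Sesn2 and Txnip, and Fasl (adjusted p = 0.0801), with 0 lost. Array weights gave 3267 higher and 3477 lower in DMSO, 2631 above DMSO, and 1121 higher and 1541 lower in both. Median centring gave 763 above DMSO. The causes were not tested. Interaction calls of Fosb without replicate 2 (3.20, adjusted p = 0.12), and of Il2 (-4.96, 0.129), Il4 (-3.68, 0.138) and Txnip (3.17, 0.122) without replicate 3, were lost.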
